A study of Rattus norvegicus with 37 samples.

Results

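The aryl hydrocarbon receptor targets described here are 3 genes of the rat liver, Cyp1a1 (ENSRNOG00000019500), Cyp1a2 (ENSRNOG00000016173) and Nqo1 (ENSRNOG00000012772), out of 24613 genes in the table of read counts. They were picked by their Ensembl identifiers, and all 3 had counts in every one of the 37 livers. The selection was made from earlier results of these same data, so that the levels and fold changes of the members are a description of these rats and not independent evidence. The rats were female and of the outbred Sprague-Dawley strain, and their age at the start was estimated from body weight as 8 to 9 weeks. Injured rats underwent laminectomy at T2, high in the thoracic spine, and then either a contusion of 25 g-cm (CONT SCI) or a complete transection of the cord (TX SCI), with an anaesthetic, an antibiotic and an opioid analgesic around surgery. A sham operation of the uninjured rats is not described in the sources used here, so that injury, surgery and these drugs cannot be told apart. The SCI + In-Cage Activity set (15 rats) had 3 groups of 5 rats, named for the size of the cage: uninjured rats (No SCI + Standard), contused rats in tiny cages (CONT SCI + Tiny) and contused rats in large ones (CONT SCI + Large). In that set the uninjured rats lived in standard cages and no injured rat did, so cage and injury cannot be told apart there. In the SCI + Exercise set (22 rats) every rat lived in a tiny cage, and the groups were No SCI (4 rats), CONT SCI (4 rats), TX SCI (4 rats), CONT SCI + SWIM (5 rats, swimming) and CONT SCI + SWW (5 rats, shallow water walking). By the sample labels exercise began on day 10 and was given on 5 days a week for 8 weeks. By the same labels tissue was taken at 11.5 weeks after injury, and at 8.5 weeks in the TX SCI group. The methods of the study give other times for the exercised rats. They place all uninjured rats at the equivalent of 11.5 weeks. Transection and time of collection therefore cannot be told apart when TX SCI is compared with CONT SCI or with uninjured rats. The methods place tissue collection of the exercised rats later than 11.5 weeks after injury. By those times exercise and time after injury cannot be told apart in any comparison of exercised with other rats.

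The aryl hydrocarbon receptor is a transcription factor that rests in the cytoplasm until it binds a ligand, such as a dioxin, a plant indole or a product of tryptophan breakdown. It then enters the nucleus, pairs with the protein ARNT and binds xenobiotic response elements near its target genes. Cyp1a1 encodes a cytochrome P450 that is scarce in resting liver and is the classical read-out of the activated receptor. Cyp1a2 encodes a related P450 that the liver makes constitutively, that metabolises caffeine and oestrogens, and that lies next to Cyp1a1 in the genome with 0 annotated genes between them in the RefSeq table. Nqo1 encodes a quinone reductase that is also a target of NRF2, the regulator of the antioxidant response. The receptor itself and the other genes of both pathways were not analysed here, since the files give no symbols for their identifiers.

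The regions just before the start of Cyp1a2 and Nqo1 are shown because response elements for the receptor and for NRF2 were sought in them. Each run holds the 250 bases before the RefSeq transcription start, 5′ to 3′ on the gene's own strand, in build GRCr8 and not in the rn6 build of the counts. The Cyp1a2 run is chr8:66978150-66978399 and the Nqo1 run is chr19:52220268-52220517, both on the minus strand. Capitals mark matches to GCGTG, the core of the xenobiotic response element, to TGACNNNGC, the core of the antioxidant response element, and to TATAAA, the TATA box, each searched on both strands with overlapping matches counted.
Cyp1a2: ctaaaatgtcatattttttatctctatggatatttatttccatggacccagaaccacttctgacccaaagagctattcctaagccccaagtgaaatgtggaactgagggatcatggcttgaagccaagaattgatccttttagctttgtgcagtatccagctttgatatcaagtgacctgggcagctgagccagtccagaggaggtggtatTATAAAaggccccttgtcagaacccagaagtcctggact
Nqo1: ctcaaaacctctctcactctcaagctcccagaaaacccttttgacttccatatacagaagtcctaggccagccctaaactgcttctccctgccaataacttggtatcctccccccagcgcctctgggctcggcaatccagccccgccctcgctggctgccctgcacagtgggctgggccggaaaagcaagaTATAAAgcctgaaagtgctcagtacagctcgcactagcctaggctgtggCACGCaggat
The Cyp1a2 run held TATAAA at bases 212 to 217 and no GCGTG. The Nqo1 run held TATAAA at bases 192 to 197 and GCGTG read on the opposite strand (printed as CACGC) at bases 241 to 245, counted from the first base shown. Neither run held TGACNNNGC. Of the 33469 promoters in the table, 25.9% held GCGTG in the same window, 10.1% held TGACNNNGC and 12.9% held TATAAA. A match is a description of the sequence only, and elements outside the window were not searched.

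Depth was 20066978 to 25130252 counted reads per library in the In-Cage set and 26190364 to 36761953 in the Exercise set. Levels are given as CPM, counts scaled to a library of 1000000 reads after adjusting the libraries to each other by the TMM method. Cyp1a1 had 8 to 230 counts per library, Nqo1 479 to 2482 and Cyp1a2 25595 to 64206. For a group's mean count, counting alone gives a coefficient of variation of 9.31% to 19.5% for Cyp1a1, of at most 3.68% for Nqo1 and of at most 0.56% for Cyp1a2. Over the 37 livers the highest level was 21.8 times the lowest for Cyp1a1, 3.72 times for Nqo1 and 2.02 times for Cyp1a2. The library of CONT SCI + SWIM replicate 3 stood apart, with the lowest number of genes detected (13648), and its fold changes, group means and relations are also given without it. In bulk tissue a change in the number of cells of a type and a change of RNA per cell cannot be told apart, and liver cell type markers could not be checked without symbols.

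Cyp1a1 was low in the uninjured rats of the Exercise set, with 0.783, 0.953, 0.645 and 1.01 CPM. In CONT SCI it was 2.29, 1.77, 1.82 and 1.89 CPM, and in TX SCI it was 1.55, 1.65, 1.76 and 1.39 CPM. All 8 of these injured rats lay above all 4 uninjured ones. The exercised rats were more spread. CONT SCI + SWIM had 3.51, 3.30, 3.22, 0.962 and 7.33 CPM, and CONT SCI + SWW had 3.53, 2.62, 2.04, 1.28 and 3.52 CPM. Of the 18 injured rats of the set 17 were above the highest uninjured rat, the exception being CONT SCI + SWIM replicate 4, while replicate 5 of that same group had the highest Cyp1a1 level of the study. Its 230 counts compare with 20 to 37 in the uninjured livers.

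**Figure D1:**
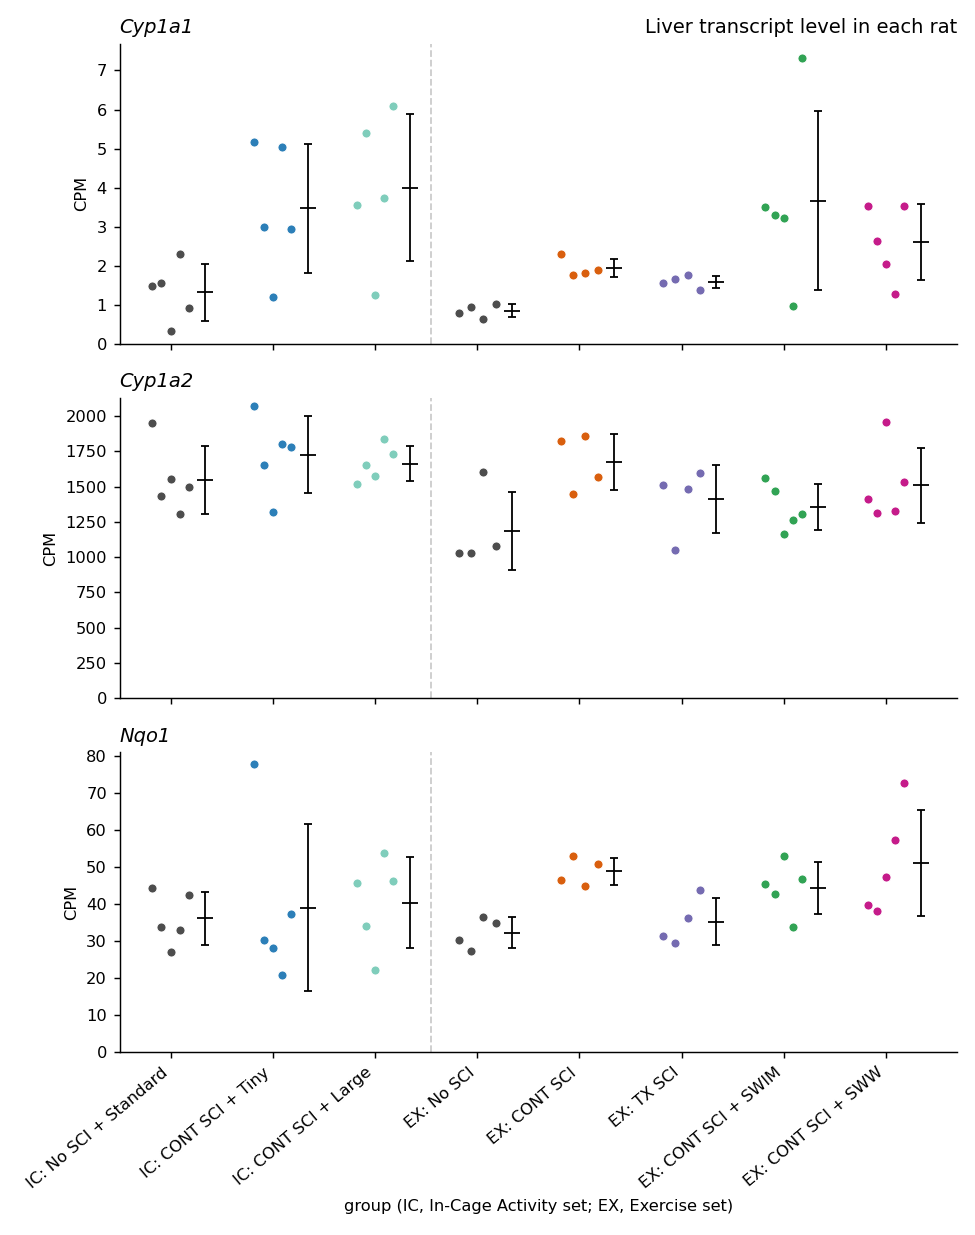
Level of Cyp1a1, Cyp1a2 and Nqo1 in each rat, in CPM on a linear axis from 0, by group. Points are rats, and the bar beside them is the group mean with its SD (n = 4 or 5); a dashed line parts the In-Cage from the Exercise set. Cyp1a1 lay above the highest uninjured rat of its set in 17 of 18 injured Exercise rats and in 8 of 10 injured In-Cage rats. Cyp1a2 did so in 3 of 18 and in 1 of 10. Cyp1a1 ranges overlapped those of uninjured rats in CONT SCI + SWIM and in both injured In-Cage groups.

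Among In-Cage rats, Cyp1a1 was 1.47, 1.56, 0.336, 2.30 and 0.904 CPM in No SCI + Standard. It was 5.17, 2.99, 1.21, 5.03 and 2.94 CPM in CONT SCI + Tiny and 3.55, 5.41, 1.24, 3.73 and 6.08 CPM in CONT SCI + Large. Of the 10 injured rats 8 were above the highest uninjured rat, and replicate 3 of each injured group was not. The share of all genes with so many injured rats above the uninjured ones was not computed for either set. The lowest value of the study, No SCI + Standard replicate 3, rests on 8 counts. The coefficient of variation among rats of a group ran from 47.1% to 56.2% in this set, against 10.6% to 19.5% from counting alone. In the Exercise set it was 19.7% in No SCI, 12.2% in CONT SCI and 9.97% in TX SCI, where counting alone gives 18.3%, 12.5% and 13.9%. The exercised groups varied more, by 62.6% in CONT SCI + SWIM and 37.3% in CONT SCI + SWW, well above the 9.31% and 10.5% from counting.

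Cyp1a2 ranges overlapped between each injured group and the uninjured rats of its set. In Exercise No SCI it was 1029, 1026, 1603 and 1082 CPM, with replicate 3 apart from the rest. In CONT SCI it was 1822, 1446, 1857 and 1565 CPM, which overlapped No SCI through that rat alone. TX SCI had 1509, 1053, 1484 and 1599 CPM. CONT SCI + SWIM ranged from 1160 to 1563 CPM and CONT SCI + SWW from 1310 to 1957 CPM, both overlapping No SCI. The lowest CONT SCI + SWIM value was that of replicate 3, the library with the fewest genes detected. In-Cage ranges were 1308 to 1950 CPM in No SCI + Standard, 1322 to 2069 CPM in CONT SCI + Tiny and 1520 to 1836 CPM in CONT SCI + Large. Only 1 of 10 injured In-Cage rats and 3 of 18 injured Exercise rats exceeded the highest uninjured rat of their set.

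Nqo1 was 30.3, 27.3, 36.5 and 34.998 CPM in Exercise No SCI and 46.5, 52.9, 45.0 and 50.9 CPM in CONT SCI, with no overlap. In TX SCI it was 31.5, 29.5, 36.3 and 43.7 CPM, which overlapped No SCI and lay below every CONT SCI rat. CONT SCI + SWIM had 45.3, 42.9, 53.1, 33.8 and 46.7 CPM and CONT SCI + SWW had 39.7, 38.1, 47.4, 57.3 and 72.8 CPM. The walking rats lay above all uninjured ones, and of the swimmers only replicate 4 did not, the rat that also had the lowest Cyp1a1 of its group. No such order was seen in the In-Cage set. No SCI + Standard ranged from 27.2 to 44.3 CPM, CONT SCI + Tiny had 77.9, 30.4, 28.1, 20.96 and 37.4 CPM, and CONT SCI + Large ranged from 22.3 to 53.8 CPM. The highest and the lowest Nqo1 of the study were both in CONT SCI + Tiny.

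The question of the injury comparisons is whether a chronic spinal cord injury changes the liver transcriptome. Differences were tested with edgeR's quasi-likelihood test on all genes that passed a filter on low counts, and an adjusted p (Benjamini-Hochberg) under 0.05 was a call. All 3 members passed the filter in all 14 comparisons, and edgeR called 0 of them in each. At an unadjusted p under 0.05 edgeR had 14 of the 42 values of the members, against 21.5% of the values of all genes tested in the 14 comparisons. DESeq2's Wald test called 9 of 42, against 10.7% of the values of all genes to which it gave an adjusted p. Of those 9 calls 6 were of Cyp1a1. Of the 20373 DESeq2 calls over all genes, 5849 and 6803 came from CONT SCI and from uninjured rats compared between the sets. The comparisons also share rats, so no conclusion about the members is drawn from these pooled shares. In the Exercise set Cyp1a1 in CONT SCI was 1.19 ± 0.22 higher than in No SCI on the log2 scale (± SE; adjusted p = 0.335 by edgeR), a ratio of means of 2.29, in 4 of 4 rats. Nqo1 was 0.60 ± 0.12 higher (adjusted p = 0.381 by edgeR), also in 4 of 4, and Cyp1a2 was 0.50 ± 0.17 higher (adjusted p = 0.937 by edgeR). This comparison called 0.00801% of the tested genes. Without overlap, and higher in CONT SCI, were 1.27% of tested genes and 2 of the 3 members. DESeq2's adjusted p was 0.00408 for Cyp1a1 and 0.0077 for Nqo1, 2 of 3 members against 0.477% of genes.

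Against the same 4 uninjured rats, Cyp1a1 in TX SCI was 0.91 ± 0.26 higher (adjusted p = 0.225 by edgeR, 0.0638% of genes called), without overlap as in 3.91% of genes. Nqo1 differed by 0.13 ± 0.16 and Cyp1a2 by 0.26 ± 0.21. In CONT SCI + SWIM Cyp1a1 was 2.10 ± 0.47 higher (adjusted p = 0.192 by edgeR, 0.00796% of genes called), the largest of its fold changes here, and 2.12 without replicate 3. Nqo1 was 0.46 ± 0.15 higher there, 0.38 without replicate 3, and Cyp1a2 0.20 ± 0.17, 0.23 without replicate 3. The ranges of all 3 members overlapped No SCI in CONT SCI + SWIM, where 2.07% of genes lay wholly above. In CONT SCI + SWW Cyp1a1 was 1.60 ± 0.32 higher (adjusted p = 0.0531 by edgeR) and Nqo1 0.66 ± 0.19 (adjusted p = 0.104 by edgeR), while Cyp1a2 differed by 0.34 ± 0.18. Both Cyp1a1 and Nqo1 were without overlap in CONT SCI + SWW, as were 3.38% of genes, and edgeR called 0.394% of genes. DESeq2 called Cyp1a1 in CONT SCI + SWIM (adjusted p = 0.00118, 1.35% of genes; 0.00374 without replicate 3) and Cyp1a1 and Nqo1 in CONT SCI + SWW (adjusted p = 0.000292 and 0.0338; 6.66% of genes). These 4 comparisons share their control rats, so their values are not separate evidence.

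Against the uninjured In-Cage rats, Cyp1a1 was 1.39 ± 0.45 higher in CONT SCI + Tiny (adjusted p = 0.0571 by edgeR), a ratio of means of 2.63. In CONT SCI + Large it was 1.59 ± 0.46 higher (adjusted p = 0.0811 by edgeR), a ratio of 3.04. The share of genes called was 12.5% for the tiny cage and 0.0337% for the large cage, so that Cyp1a1 missed the threshold in the former where many genes passed. No member lay wholly above the uninjured rats, against 4.19% of genes for the tiny cage and 1.76% for the large cage. DESeq2 called Cyp1a1 in both (adjusted p = 0.0141 and 0.0123, with 22% and 12.8% of genes called). Both comparisons share their control rats, so their values are not separate evidence. With 1 rat left out, the Cyp1a1 difference by edgeR ran from 1.13 to 1.69 for the tiny cage. For the large cage it ran from 1.33 to 1.90. The lowest value in each came without No SCI + Standard replicate 3. Cyp1a2 differed by 0.14 ± 0.14 and 0.09 ± 0.13, and Nqo1 by 0.08 ± 0.31 and 0.14 ± 0.22, each less than its spread among rats. The Nqo1 value for the tiny cage turned to -0.34 (adjusted p = 0.228 by edgeR) without CONT SCI + Tiny replicate 1, the rat with 77.9 CPM.

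**Figure D2:**
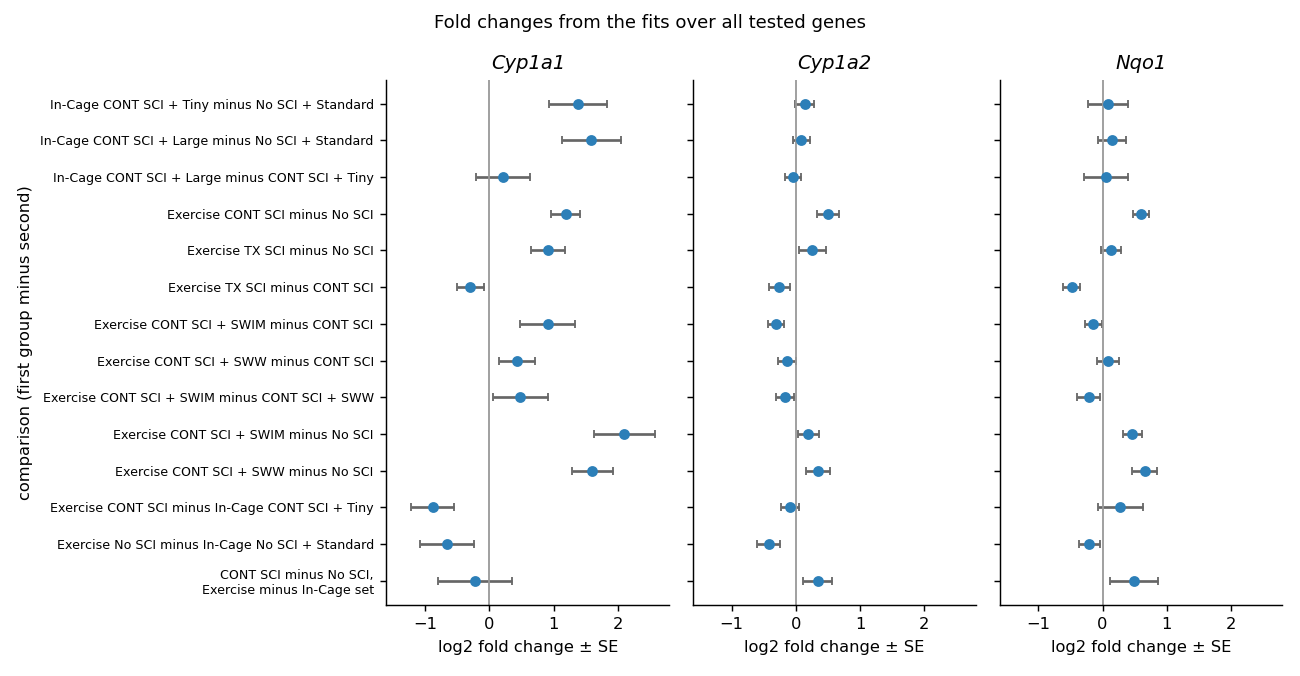
Log2 fold change of each member in the 14 comparisons (points) with its standard error (bars), first group minus second as named on the left. Cyp1a1 lay between 0.91 and 2.10 in the 6 comparisons of an injured with an uninjured group, while Cyp1a2 lay between 0.09 and 0.50.

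The next comparisons ask whether kind of injury, cage size and exercise matter among injured rats. Nqo1 in TX SCI differed from CONT SCI by -0.48 ± 0.13 on the log2 scale (adjusted p = 0.185 by edgeR). The Cyp1a1 and Nqo1 levels of TX SCI lay wholly below CONT SCI, 2 of 3 members where 4.68% of genes did so and 0.0321% were called. For Cyp1a1 that gap was 1.76 against 1.77 CPM, and without a scaling factor the ranges overlapped (up to 1.94 CPM in TX SCI, from 1.74 CPM in CONT SCI). The Cyp1a1 difference was -0.30 ± 0.21, and that of Cyp1a2 -0.26 ± 0.16. Nqo1 passed the threshold without TX SCI replicate 4 (-0.59, adjusted p = 0.039 by edgeR), in a fit that called 1.85% of genes. Swimming went with a Cyp1a1 level 0.91 ± 0.43 above CONT SCI (adjusted p = 0.397 by edgeR, 0.008% of genes called), and this was 0.49 without replicate 5 and 0.95 without replicate 3. Cyp1a2 in the swimmers differed from CONT SCI by -0.31 ± 0.13 (adjusted p = 0.328 by edgeR; -0.25 without replicate 3), opposite in sign to Cyp1a1, and Nqo1 differed by -0.14 ± 0.13 (-0.21 without replicate 3). Walking gave 0.43 ± 0.27, -0.13 ± 0.14 and 0.08 ± 0.17 for Cyp1a1, Cyp1a2 and Nqo1, with 0.759% of genes called. Swimming minus walking was 0.48 ± 0.43 for Cyp1a1, 0.07 without CONT SCI + SWIM replicate 5 and 0.53 without replicate 3. It was -0.17 ± 0.14 for Cyp1a2 and -0.21 ± 0.18 for Nqo1 (-0.11 and -0.28 without replicate 3), with 0% of genes called by edgeR (680 genes at an unadjusted p under 0.05, 14 called by DESeq2). CONT SCI + Large minus CONT SCI + Tiny was 0.21 ± 0.42, -0.05 ± 0.13 and 0.05 ± 0.35 for the 3 members, again with 0% called by edgeR (346 genes at an unadjusted p under 0.05, 3 called by DESeq2).

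Both sets hold CONT SCI rats in tiny cages, and both hold uninjured rats, which lived in standard cages in the In-Cage set and in tiny cages in the Exercise set. Cyp1a1 was lower in Exercise CONT SCI than in In-Cage CONT SCI + Tiny by a log2 difference of -0.88 ± 0.34 (adjusted p = 0.0502 by edgeR). Between the uninjured groups it was -0.66 ± 0.42, and Cyp1a2 there was -0.43 ± 0.18 (adjusted p = 0.0638 by edgeR). These are comparisons in which 45.1% and 51.4% of all genes were called, and sequencing depth differed between the sets, so a difference in a member cannot be told apart from the set, nor from the cage in the uninjured rats. DESeq2 called Cyp1a1 between the CONT SCI groups (adjusted p = 0.0287; 39.4% of genes) and Cyp1a2 between the uninjured groups (adjusted p = 0.0498; 45.8% of genes). The difference between the sets in the effect of CONT SCI was -0.22 ± 0.57 for Cyp1a1, 0.34 ± 0.23 for Cyp1a2 and 0.49 ± 0.38 for Nqo1 (adjusted p = 0.833, 0.34 and 0.411 by edgeR; 0.199% of genes called), and the cage of the uninjured rats is part of that difference. The effect on Nqo1 is thus not shown to differ between the sets, although Nqo1 ranges parted CONT SCI from No SCI in the Exercise set alone.

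A ratio of 2 members within a library does not depend on how libraries are scaled. Cyp1a1 reads per 1000 Cyp1a2 reads were 0.761, 0.929, 0.402 and 0.935 in Exercise No SCI and 1.26, 1.22, 0.982 and 1.21 in CONT SCI, without overlap. In TX SCI they were 1.03, 1.56, 1.19 and 0.870, the last inside the uninjured range. The CONT SCI + SWIM rats had 2.25, 2.24, 2.77, 0.762 and 5.60 and the CONT SCI + SWW rats 2.50, 2.00, 1.04, 0.965 and 2.30. Means were 2.73 ± 1.77 (SD, n = 5) in swimmers, 2.71 ± 2.05 (SD, n = 4) without replicate 3, and 1.17 ± 0.12 (SD, n = 4) in CONT SCI, with the 4 swimmers other than replicate 4 all above the highest CONT SCI rat. The In-Cage means were 0.886 ± 0.581 in uninjured rats, 1.93 ± 0.74 in CONT SCI + Tiny and 2.39 ± 1.09 with large cages (SD, n = 5 each), with overlap. Nqo1 reads per 1000 Cyp1a2 reads overlapped between CONT SCI (24.2 to 36.6) and No SCI (22.8 to 32.4) in the Exercise set. Cyp1a1 reads per 100 Nqo1 reads overlapped too, with 1.77 to 3.49 in No SCI and 3.34 to 4.93 in CONT SCI. Both the gap against Cyp1a2 (0.935 against 0.982) and this overlap were narrow. They rest on 20 to 37 Cyp1a1 counts in No SCI and 52 to 80 in CONT SCI. Means rose from 0.757 to 1.17 per 1000 Cyp1a2 reads and from 2.68 to 4.01 per 100 Nqo1 reads. Whether the 2 ratios differ in this was not tested. The 2 P450 genes are paralogs, and how the authors' counting shared reads between them was not tested. Cyp1a1 is therefore uncertain to the extent that Cyp1a2 reads were placed on it.

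**Figure D3:**
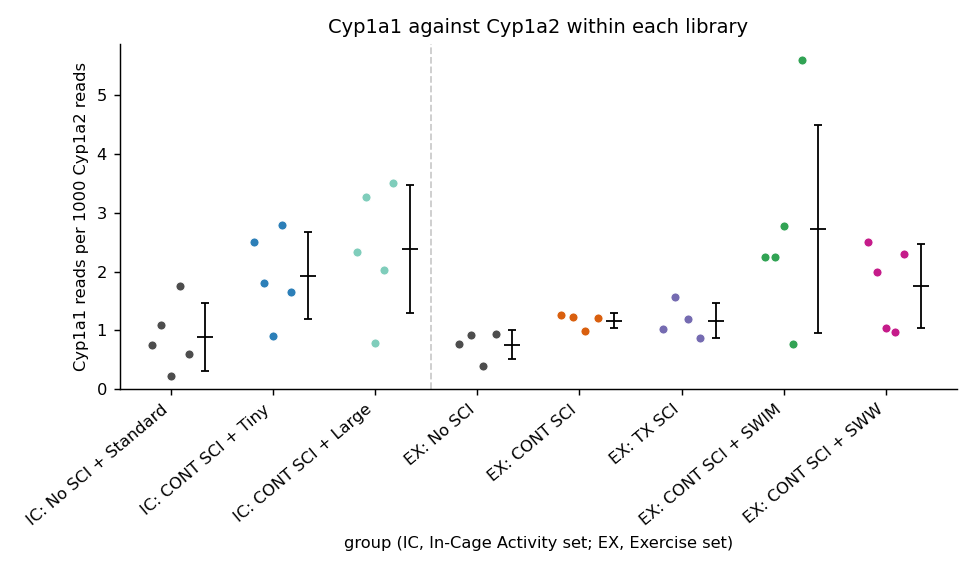
Cyp1a1 reads per 1000 Cyp1a2 reads in each rat, on a linear axis from 0. Points are rats and bars the group mean with its SD; CONT SCI in the Exercise set lay between 0.982 and 1.26, and CONT SCI + SWIM reached from 0.762 to 5.60.

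The order of the group means of Cyp1a1 in the Exercise set was No SCI (0.848 ± 0.167 CPM, SD, n = 4), TX SCI (1.59 ± 0.16, n = 4), CONT SCI (1.94 ± 0.24, n = 4), CONT SCI + SWW (2.599 ± 0.970, n = 5) and CONT SCI + SWIM (3.66 ± 2.30, n = 5). Neighbours among the first 3 did not overlap, TX SCI and CONT SCI by the small gap given above, and the later neighbours did. For Cyp1a2 the order was No SCI (1185 ± 280 CPM), CONT SCI + SWIM (1353 ± 162), TX SCI (1411 ± 244), CONT SCI + SWW (1508 ± 266) and CONT SCI (1673 ± 200), and for Nqo1 No SCI (32.3 ± 4.2 CPM), TX SCI (35.3 ± 6.3), CONT SCI + SWIM (44.4 ± 7.0), CONT SCI (48.8 ± 3.7) and CONT SCI + SWW (51.05 ± 14.33), where all neighbours overlapped (SD, n as above). Without replicate 3 the CONT SCI + SWIM means were 3.78 ± 2.64 CPM for Cyp1a1, 1402 ± 140 CPM for Cyp1a2 and 42.2 ± 5.8 CPM for Nqo1 (SD, n = 4). All In-Cage neighbours overlapped for all 3 members. Cyp1a1 means there were 1.32 ± 0.74, 3.47 ± 1.65 and 4.00 ± 1.88 CPM in uninjured rats and in contused rats with tiny and with large cages (SD, n = 5 each).

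Whether the members varied together from rat to rat was examined within each set on log2(CPM + 1), for 6 relations (permutation test, two-sided, 100000 resamples). In the Exercise set (n = 22) Cyp1a1 and Nqo1 had a Pearson r of 0.51 (permutation p = 0.0169, adjusted 0.0554) and a Spearman rho of 0.56 (permutation p = 0.0069, adjusted 0.0414), and r was 0.56 without the 2 rats farthest from the median of Cyp1a1. With each value centred on its group mean, r was 0.20 (permutation p = 0.372), so the relation did not pass within groups. Cyp1a2 and Nqo1 had an r of 0.50 (permutation p = 0.0185, adjusted 0.0554) and a rho of 0.44 (permutation p = 0.04, adjusted 0.0807), with an r of 0.32 without the 2 rats farthest from the median of Cyp1a2 and of 0.24 within groups. Those 2 rats were uninjured, and the relation did not pass without them or with the group means removed. Cyp1a1 and Cyp1a2 had an r of 0.21 (permutation p = 0.342) and a rho of 0.24 (permutation p = 0.289), and an r of -0.01 within groups. Without CONT SCI + SWIM replicate 3, r was 0.48 for Cyp1a1 and Nqo1, 0.58 for Cyp1a2 and Nqo1 and 0.27 for Cyp1a1 and Cyp1a2.

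In the In-Cage set (n = 15) the r values were 0.50 for Cyp1a1 and Cyp1a2 (permutation p = 0.0587, adjusted 0.105), 0.37 for Cyp1a1 and Nqo1 (permutation p = 0.171, adjusted 0.206) and 0.48 for Cyp1a2 and Nqo1 (permutation p = 0.0703, adjusted 0.105). The rho values were 0.54, 0.45 and 0.43 in the same order (permutation p = 0.0403, 0.0925 and 0.11, adjusted 0.0807, 0.133 and 0.133). Without the 2 farthest rats r was 0.50, 0.39 and 0.47, and within groups 0.40, 0.45 and 0.51. No Pearson relation in either set passed an adjusted p of 0.05.

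**Figure D4:**
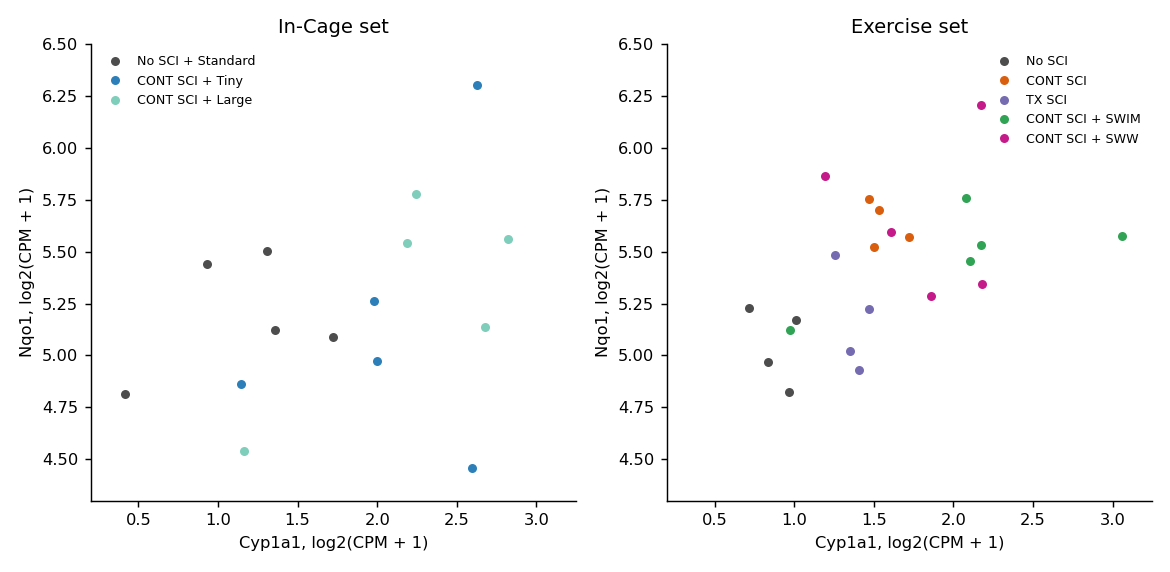
Nqo1 against Cyp1a1 in each rat, both as log2(CPM + 1), with the In-Cage set (15 rats) on the left and the Exercise set (22 rats) on the right and colour marking the group. In the Exercise set the uninjured rats sit at the lower left (r = 0.51 over all rats, 0.20 within groups).

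As a description over all 37 rats, with values centred on the mean of their set, the genes whose log2(CPM + 1) was most like that of Cyp1a1 were ENSRNOG00000050360 (r = 0.62) and ENSRNOG00000009350 (r = 0.61), and the most opposed were ENSRNOG00000018778 (r = -0.65) and ENSRNOG00000007601 (r = -0.60). No file at hand gives names for these identifiers. Among 9099 genes ranked by likeness to Cyp1a1, Nqo1 stood at place 108 (r = 0.43) and Cyp1a2 at place 544 (r = 0.31). Ranked by likeness to Nqo1, Cyp1a2 stood at place 59 (r = 0.46) and Cyp1a1 at place 83. These points share libraries, groups and depth, and no test was made of them.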

How the data were processed

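Livers of 37 female rats in 8 groups were sequenced as poly(A) RNA, single-end, on a stranded kit. The authors aligned the reads with STAR to the rn6 rat genome, counted them on Ensembl genes with HTSeq, left out mitochondrial genes, and deposited raw counts per gene and sample, without normalization. Groups and replicate numbers came from the sample labels, and all 37 columns were used (0 left out).

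The members and lists were chosen with earlier results of these data known. CPM used TMM-scaled library sizes over all 37 samples. edgeR 4.0.16 (R 4.3.3) tested the differences by glmQLFit and glmQLFTest after filterByExpr (count at least 10, total at least 15), each comparison on its own 2 groups, the comparison of sets on 4 groups, with Benjamini-Hochberg adjustment over all genes tested. A standard error is the fold change divided by the square root of F. Replicates were separate rats, 2 to a cage, and cage mates could not be identified. Every pair of libraries of a group differed by more than sampling noise (lowest reduced chi-square 31.0 over 68 pairs). Counting error was below the spread between rats except for Cyp1a1 in Exercise CONT SCI and TX SCI. Correlations used permutation in scipy 1.17.1. Likeness was taken among genes with a mean of at least 100 counts, Cyp1a1 being added although below it; the rule names the 2 most like and the 2 most opposed genes of each member, and identifiers are printed for Cyp1a1 only, since no table pairs them with symbols (0 matched). For that reason pathway, clock and cell type marker lists were not analysed here. Scripts were tested on simulated data. Alternatives were DESeq2 1.42.0, RLE normalization, no filter, a joint fit of the set's groups, a replicate block, each rat left out, unscaled CPM and another pseudocount (0.1 in place of 1). Values without CONT SCI + SWIM replicate 3 for the means, relations and DESeq2 were added after seeing the data. Shares of genes called by DESeq2 are of genes with an adjusted p. Promoter sequences are from RefSeq (GRCr8), with entries for 2 of the 3 members.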

Additional observations from a re-analysis of the deposited data

Results flagged for a closer look

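Among the 24 sets of values tested (3 genes in 8 groups of 4 or 5 rats), 2 held a rat far from the others of its group by Dixon's criterion, and chance gives about 1 in 20. The Cyp1a2 level of Exercise No SCI replicate 3 was 1603 CPM, where the other 3 uninjured rats had 1026 to 1082 CPM. Without that rat the Cyp1a2 difference of CONT SCI from No SCI was 0.68 on the log2 scale (adjusted p = 0.374 by edgeR) in place of 0.50. The Nqo1 level of In-Cage CONT SCI + Tiny replicate 1 was 77.9 CPM, where the other 4 had 20.96 to 37.4 CPM. Without it the difference between the sets in the effect of CONT SCI on Nqo1 was 0.92 (adjusted p = 0.0883 by edgeR) in place of 0.49.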

How the results depend on the processing

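Fold changes kept their size within the spread between rats in 614 of 615 alternative fits, the exception being Nqo1 in the difference between the sets without In-Cage CONT SCI + Tiny replicate 1 (0.92). That spread is wide, and fits counted as kept still moved when 1 rat was left out. Nqo1 in CONT SCI + Tiny against No SCI + Standard went from 0.08 to -0.34. Its difference in CONT SCI between the sets went from 0.28 up to 0.70. Cyp1a1 in swimming minus walking went from 0.48 down to 0.07. All 48 mean levels under other scalings stayed within 1 SD. The count of members called was 0 in the 14 comparisons and stayed 0 in 184 of 205 alternatives. Under DESeq2 it was 1 for In-Cage CONT SCI + Tiny and CONT SCI + Large and Exercise CONT SCI + SWIM against uninjured rats (Cyp1a1), 1 for CONT SCI between the sets (Cyp1a1), 1 for uninjured rats between the sets (Cyp1a2), and 2 for Exercise CONT SCI and CONT SCI + SWW against No SCI (Cyp1a1 and Nqo1); it stayed 1 for CONT SCI + SWIM without its replicate 3 (0.914% of genes called), and the cause was not tested. With all groups of the Exercise set in one fit it was 1 for CONT SCI + SWIM and 2 for CONT SCI + SWW against No SCI, where Cyp1a1 had an adjusted p of 0.0261 and 0.0376 by edgeR and 0.375% and 2.08% of genes were called. In that joint fit CONT SCI against No SCI had 0 genes called. The adjusted p by edgeR was 0.99991 for Cyp1a1 and 0.87 for Nqo1 there. With no filter on low counts it was 1 for CONT SCI + SWW against No SCI (Cyp1a1, adjusted p = 0.0408 by edgeR, 0.399% of genes called). Over the fits that leave out 1 rat the count ranged from 0 to 1 in 6 comparisons and was 0 in the other 8. The 9 fits with a call are given with the share of genes each called. Cyp1a1 was called in CONT SCI + Large without its replicate 1 (adjusted p = 0.047 by edgeR, 16.9% of genes), in CONT SCI + SWIM against No SCI without replicate 4 (0.0442, 0.0723%), in CONT SCI + SWW against No SCI without replicate 4 (0.0467, 0.199%) or without No SCI replicate 2 (0.0203, 13.2%), in CONT SCI between the sets without CONT SCI + Tiny replicate 3 (0.00209, 45.7%), and in uninjured rats between the sets without No SCI + Standard replicate 3 (0.0291, 51.3%). Nqo1 was called in TX SCI against CONT SCI without TX SCI replicate 4 (0.039, 1.85%) and in CONT SCI between the sets without CONT SCI + Tiny replicate 1 (0.00351, 41.8%). Cyp1a2 was called in uninjured rats between the sets without Exercise No SCI replicate 3 (0.0143, 42.7%).

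Deviations of same-numbered rats from their group means correlated between -0.55 and 0.65, and in 0 of 13 comparisons was every pair over 0.1. This cannot decide whether such rats share more than a number, since a shared order of handling need not raise every pair. Replicate 3 had the lowest Cyp1a1 of each In-Cage group (uninjured 0.336 CPM, tiny cage 1.21 CPM, large cage 1.24 CPM). Among the Exercise groups it was lowest in No SCI alone. The cause was not tested. With the replicate block the count was 1 for In-Cage CONT SCI + Tiny against No SCI + Standard (Cyp1a1, 1.41, adjusted p = 0.0217 by edgeR, 14.1% of genes called), and 0 in the other 12.

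Of the relations between members, Cyp1a1 with Cyp1a2 in the Exercise set turned to r = -0.0052 with values centred on the group mean, where Cyp1a1 with Nqo1 (r = 0.20) and Cyp1a2 with Nqo1 (r = 0.24) no longer passed an unadjusted permutation p of 0.05. On unscaled CPM Cyp1a1 with Cyp1a2 in the In-Cage set passed it (r = 0.53, permutation p = 0.0426).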
